A study of Homo sapiens with 18 samples.

Results

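The regions described here are 686 MAX binding peaks that were listed in U2OS cells carrying wild-type MYC, sat at the ends of protein-coding genes, and were missing from the lists of both MYC mutants. A peak was a member when it came from the wild-type (WT) list, lay on chromosomes 1 to 22 or X, shared no base pair with any peak of the 3A or 7A list, and had its summit no more than 1000 bp from the start or end of a RefSeq protein-coding gene (hg38). These members made up 6.37% of the 10776 WT peaks at gene ends, out of 34617 WT peaks on those chromosomes. The same call, no peak in either mutant list, applied to 22.9% of all WT peaks and to 30.4% of WT peaks away from gene ends. Members were chosen by the measured peak positions in the 3 lists, so presence, fold enrichment, width and gaps between peaks are given below as a description and carry no test.

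The study mapped MAX by chromatin immunoprecipitation and sequencing with a spiked-in reference genome (ChIP-Rx) in U2OS, a human osteosarcoma line. All cells were MYC knockouts with a Tet-On construct for MYC 3A, MYC 7A or MYC WT, and each was either induced with 1 µg/ml doxycycline (Dox) or left without Dox, for 24 h. Mouse NIH3T3 cells were mixed in at 10% as the reference genome. The labels list 12 MAX immunoprecipitation libraries, as 2 biological replicates for each of the 3A Dox, 3A no Dox, 7A Dox, 7A no Dox, WT Dox and WT no Dox groups, and 6 inputs, 1 per group. The antibody field names MAX, whereas the protocol text of the same samples names an anti-FLAG antibody. The labels do not say what 3A and 7A change in MYC, nor whether each line was 1 clone. The data used here are 3 peak lists, 1 per MYC form, with 27294 peaks for 3A, 25159 for 7A and 34622 for WT. Neither Dox nor replicate is resolved within a list, read depth is unknown, and MYC forms are therefore compared without any test. The identity of the cells could not be checked from peaks.

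MAX is the obligate partner of MYC. The pair binds DNA through basic helix-loop-helix zipper domains, with highest affinity for the palindromic E-box CACGTG. MAX also pairs with the MXD proteins, MNT and MGA, which repress transcription at the same kind of site, so a MAX peak does not by itself show which partner was bound. In growing cells MYC and MAX are known to occupy most active promoters, with E-box-poor promoters filled as MYC levels go up.

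Several members lay on an E-box next to a transcription start. In 12 of the 124 RefSeq promoter windows that held a member summit, CACGTG stood before a listed start and within 50 bp of the summit. The 5 with the strongest peaks, and that of the circadian gene CIART, are shown because they place the motif, the summit and the start side by side. CACGTG anywhere in the window was found in 13.7% of member windows and in 16.2% of those holding a WT peak shared with both mutants. Each line gives RefSeq bases of GRCh38.p14 on the strand of the gene, 5′ to 3′, with CACGTG in capitals and up to 30 bases on each side of it, cut off at the start.
ACTL8, chr1:17755294-17755332, plus strand: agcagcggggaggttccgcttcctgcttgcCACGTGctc
SAP25, chr7:100573962-100574027, minus strand: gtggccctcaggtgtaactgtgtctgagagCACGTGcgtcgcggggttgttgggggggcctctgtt
WDR86, chr7:151410139-151410204, minus strand: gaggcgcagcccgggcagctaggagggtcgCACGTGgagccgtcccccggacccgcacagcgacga
GIMAP2, chr7:150685596-150685661, plus strand: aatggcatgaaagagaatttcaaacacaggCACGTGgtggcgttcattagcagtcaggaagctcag
PDIA2, chr16:283072-283137, plus strand: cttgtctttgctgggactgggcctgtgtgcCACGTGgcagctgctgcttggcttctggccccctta
CIART, chr1:150282453-150282518, plus strand: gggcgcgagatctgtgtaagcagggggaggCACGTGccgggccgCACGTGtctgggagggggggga
The fold enrichments of these 6 WT peaks were 35.5 at ACTL8, 18.05 at SAP25, 13.2 at WDR86, 13.1 at GIMAP2, 10.4 at PDIA2 and 9.81 at CIART. The nearest mutant peak was far from each of them, at 70599 bp for ACTL8, 11878 bp for SAP25, 49054 bp for WDR86, 114523 bp for GIMAP2, 43900 bp for PDIA2 and 10954 bp for CIART. Among the promoters not shown, it lay closer to the members of RAP2C (10.3), at 1255 bp, and SP100 (7.15), at 4229 bp. The CIART stretch carries 2 copies of the motif. Counted from the listed start, the motif shown began at position -9 in ACTL8, -97 in SAP25, -136 in WDR86, -80 in GIMAP2, -62 in PDIA2 and, for the upstream copy, -71 in CIART. The ACTL8 window held 2 copies of CACGTG. The copy nearer to the summit began 19 bp past the start, with its centre 3.5 bp from the summit, and is not in the stretch shown.

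Most members were weaker and narrower than WT gene-end peaks shared with both mutants, and similar in this to WT peaks found in 1 mutant list only. Fold enrichment, a linear ratio of signal to background given by the peak caller, had a median of 7.64 over the 686 members (lowest 2.77, highest 43.2), against 15.7 over the other 10090 WT gene-end peaks. The median width was 410 bp for members and 982 bp for the others, and the median −log10 q was 40.3 for members and 181 for the others. Of the members, 609 lay below the median fold enrichment of the other gene-end peaks, and 135 belonged to the weakest 10% of the WT list. Of the 10090, 9583 were shared with both mutants, 319 with 3A alone and 188 with 7A alone. The peaks shared with 3A alone had a median fold enrichment of 7.4 and a median width of 449 bp, and those shared with 7A alone 8.09 and 533 bp. The median of members depends on how they are taken, and was 11.6 with lists of equal length. Only 9 members ranked in the strongest 10% of the WT list, or 1.31% (95% exact Clopper-Pearson interval 0.602 to 2.48), whereas 18.2% of all WT gene-end peaks did. These intervals cover counting error only. The weakest members lay at ATP9A (2.77), ADAMTSL1 (2.96) and FOXP4 (3.03). The widest was a 2681 bp peak between the divergent collagen genes COL4A2 and COL4A1, with a fold enrichment of 11.3, followed by CBARP (2403 bp) and FOXO3, a forkhead transcription factor gene (1946 bp).

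The limits of the rule cut through peaks of similar strength. Just inside 1000 bp were the peaks of CNTFR (fold enrichment 4.74, summit at 1000 bp), ITIH4 (6.50, 998 bp) and ADGRB2 (9.58, 998 bp), and just outside were LRRC73 (8.88, 1001 bp), NPTX2 (5.41, 1002 bp) and GPR137 (12.1, 1005 bp). The members nearest to a mutant peak were those of CDO1, at a gap of 127 bp, the pair PGM3 and RWDD2A at 141 bp, and CNOT1 at 149 bp. The gene-end peaks with the smallest overlap, which were not members, shared 19 bp with a 7A peak at NDUFB6, 100 bp with a 7A peak at F2R and 175 bp with a 3A peak at ETV1. The number of members depends on the length of the lists. With every list reduced to its 25159 peaks of highest −log10 q, the length of the shortest, 330 of 9400 WT gene-end peaks were without a mutant peak, or 3.51%.

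Members lay farther from gene ends than other WT gene-end peaks, and a larger share of them was at the 3′ end. Strand was known for the nearest gene of 530 members, from a promoter table that held 15812 of the 19974 genes. Chromosome 8, with 19 members, was not analysed for strand or promoter motifs. Of the 530 members of known strand, 416 were nearest to a transcription start and 114 to a transcription end. The share at transcription ends was 21.5% (18.1 to 25.3) among members and 3.9% (3.49 to 4.34) among the 8285 other WT gene-end peaks of known strand. It was 10.3% (6.82 to 14.7) for WT peaks shared with 3A alone and 13% (8.02 to 19.6) for those shared with 7A alone. Where a peak counted as shared only with a mutant summit within 100 bp of its own, the members' share at transcription ends was 9% (7.59 to 10.6). Distance to the nearest gene end had a median of 381 bp for members and 163 bp for the others. A summit within 250 bp was found for 37% of members (33.4 to 40.8), against 63.3% of the others (62.3 to 64.2), 41.4% (35.9 to 47) of peaks shared with 3A alone and 46.8% (39.5 to 54.2) of peaks shared with 7A alone.

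**Figure D1:**
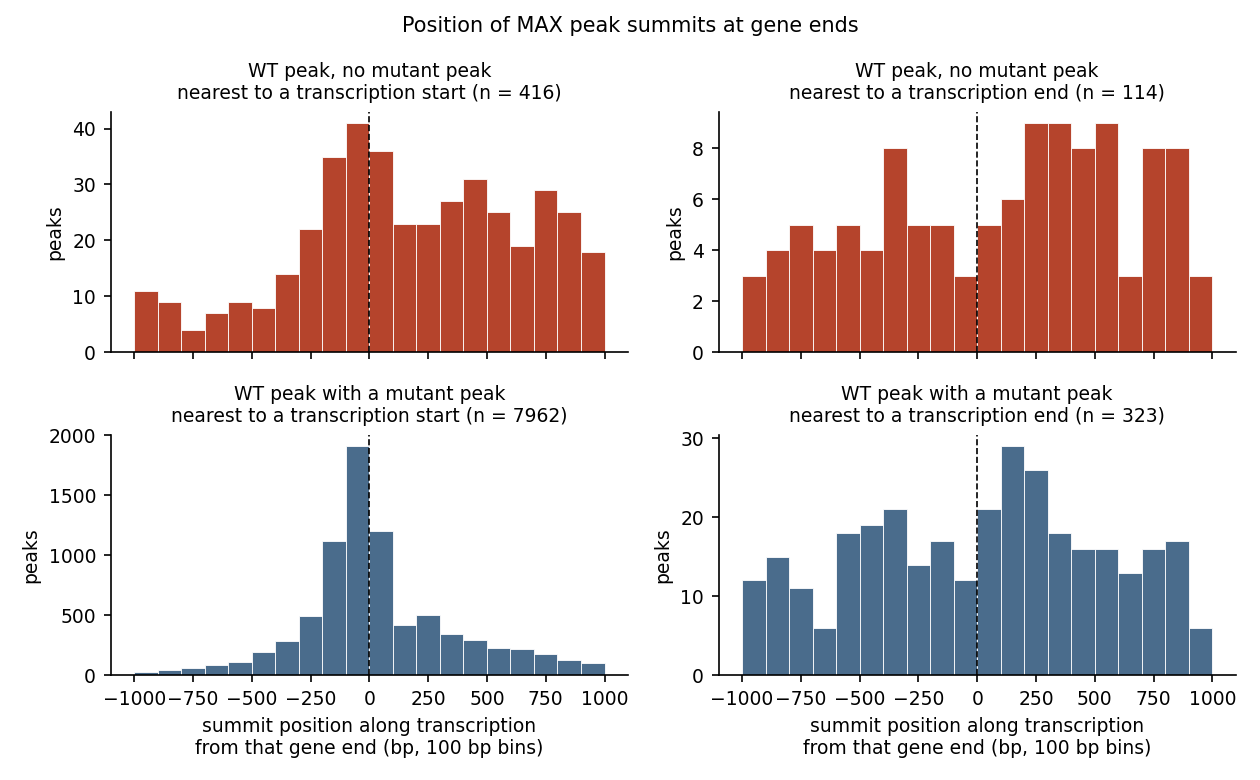
Histograms of the summit position along the direction of transcription, in 100 bp bins, relative to the nearest gene end (dashed line), with the number of peaks on the y axis, which has its own scale in each panel. Top panels show WT peaks with no mutant peak, bottom panels WT peaks with one, by whether the nearest end was a transcription start (left) or a transcription end (right). The 7962 start-nearest peaks with a mutant peak gather just before the start, whereas the 416 members spread into the first 1000 bp of the gene. Of the 7962, 7608 were shared with both mutants.

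Around transcription starts, members extended into the gene. Of the 416 start-nearest members, 256 lay downstream of the start, or 61.5% (56.7 to 66.2), and 183 lay over 250 bp downstream, or 44% (39.2 to 48.9). Among the 7962 other start-nearest WT peaks these shares were 45.3% (44.2 to 46.4) and 21.7% (20.8 to 22.6). For peaks shared with 3A alone they were 54.6% (47.9 to 61.2) and 40.5% (34.1 to 47.2), close to those of members. For peaks shared with 7A alone they were 48.8% (39.9 to 57.8) and 29.1% (21.4 to 37.9). FTL, which encodes ferritin light chain, an iron storage protein, was an example with a fold enrichment of 38.5 and a summit 769 bp past the start. FTL also had a start peak found in all lists, at 29.6 in 3A, 18.4 in 7A and 21.1 in WT. Fold enrichments of different lists stand on separate scales and were not compared. KHSRP, which encodes an RNA-binding protein, and FAM120A had their members 485 bp and 825 bp past the start, with fold enrichments of 26.4 and 26.3. All of these examples lay close to a mutant peak, at 236 bp for FTL, 235 bp for KHSRP and 276 bp for FAM120A. Of the 146 start-nearest members within 500 bp of a mutant peak, 61% (52.5 to 68.9) lay over 250 bp downstream. Of the 206 that were over 5000 bp from a mutant peak, 32% (25.7 to 38.9) did.

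At other start-nearest members, the WT list held no gene-end peak besides members. ACTL8, an actin-like gene of the testis, had its peak of 35.5 at 17 bp past the start. The 3A list held a gene-end peak of 9.37 at the other end of ACTL8, and the 7A list held none. CAMKV, a neuronal kinase-like gene, had a fold enrichment of 35.4 at 703 bp past the start. UTF1, a transcription factor gene of undifferentiated embryonic cells, had 28.2 at 380 bp past the start. The glutamate transporter gene SLC1A6 and its neighbour TEKTL1 shared a peak of 28.4, and no gene-end peak was listed for them, nor for CAMKV and UTF1, in either mutant list.

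Among the 20 members with the highest fold enrichment, 11 were nearest to a transcription end, 7 to a transcription start and 2 had no known strand. The 11 lay at PHB2, LOC124901225, XPNPEP2, the pair JMJD8 and STUB1, TMEM255B, PTMA, SLC25A1, MC3R, SMIM1, PCBP1 and DDIT4. The summit at LOC124901225 also lay 519 bp before a listed start of another gene, HMGA1, and its peak was 351 bp from a mutant peak. That at MC3R, a short gene, also lay 770 bp past the listed start of MC3R itself. PHB2, a prohibitin of the inner mitochondrial membrane, led with a fold enrichment of 43.2 and a summit 39 bp past its end (chromosome 12, 6965094 to 6965486). At the start of PHB2 a peak was listed for each MYC form, at 27.5 in 3A, 21.8 in 7A and 27.4 in WT. PTMA, which encodes prothymosin alpha, an acidic nuclear protein and known MYC target, had its member of 29.2 at 455 bp past the end (chromosome 2, 231713632 to 231714228). Its start peak measured 45.8 in 3A, 34.6 in 7A and 41.9 in WT.

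The same arrangement was seen at further genes, with a start peak in each list and a second WT peak near the end. SLC25A1, the mitochondrial citrate carrier, had a member of 28.2 at 743 bp past its end and start peaks of 21.0 in 3A, 18.1 in 7A and 17.3 in WT. PCBP1, an RNA-binding protein gene, had a member of 26.1 at 554 bp past its end and start peaks of 65.6 in 3A, 43.6 in 7A and 73.8 in WT. DDIT4, a stress-induced inhibitor of mTORC1, had a member of 25.9 at 472 bp before its end, with start peaks of 14.7 in 3A, 9.76 in 7A and 21.1 in WT. The nearest mutant peak of the DDIT4 member lay 245 bp away, and that of the PHB2 member 3379 bp away. Over all 114 members at transcription ends, 56 had a nearest gene with a start peak in both mutant lists, and 55 had a nearest gene with no gene-end peak in either. XPNPEP2, a membrane aminopeptidase gene (39.7), TMEM255B (33.1) and MC3R, a melanocortin receptor gene (27.4, also 770 bp past its start), belonged to the second kind.

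Transcription-end members were narrow, with a median width of 315.5 bp against 471 bp for start-nearest members, at median fold enrichments of 8 and 7.6. Of the 114, 68 lay at or past the end and 46 before it. A listed transcription start of any gene in the promoter table, alternative starts and non-coding genes included, was found within 1000 bp of 9 of them, or 7.89% (3.67 to 14.5). Among end-nearest WT peaks that a mutant peak overlapped, it was found for 77 of 323, or 23.8% (19.3 to 28.9). By kind, it was found for 73 of 278 peaks shared with both mutants, or 26.3% (21.2 to 31.8). It was found for 2 of 26 peaks shared with 3A alone (7.69%) and 2 of 19 shared with 7A alone (10.5%), shares near that of members.

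The share of WT peaks without a mutant peak was also taken by nearest end and fold enrichment. Of the 437 WT peaks nearest to a transcription end, 26.1% (22 to 30.5) were members, and of the 8378 nearest to a start 4.97% (4.51 to 5.45). Between fold enrichments of 5 and 10 the shares were 36% (28.6 to 44) at ends and 11% (9.66 to 12.5) at starts. At 20 and over they were 14.4% (8.12 to 23) at ends and 0.627% (0.378 to 0.977) at starts. Below 5 the intervals overlapped, with 36.2% (22.7 to 51.5) at ends and 24.1% (19.5 to 29.1) at starts. Width was not matched in these bins, which were set after the values were seen.

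**Figure D2:**
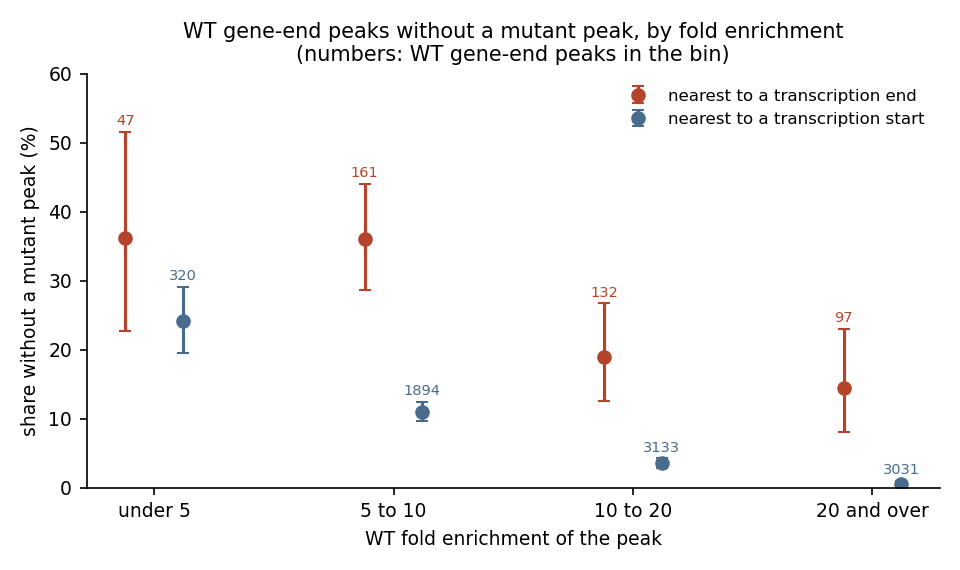
Share of WT gene-end peaks with no mutant peak (y axis, percent) in 4 bins of WT fold enrichment (x axis), for peaks nearest to a transcription end and to a transcription start. Points are shares, bars are 95% Clopper-Pearson intervals and the small numbers count the WT gene-end peaks in each bin. At 20 and over, 14.4% of end-nearest and 0.627% of start-nearest peaks were without a mutant peak.

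Members fell into a set close to a mutant peak and a set far from any. The gap to the nearest 3A or 7A peak was at most 500 bp for 189 members, or 27.6% (24.2 to 31.1), between 500 and 5000 bp for 131, or 19.1% (16.2 to 22.2), and longer for 366, or 53.4% (49.5 to 57.1). In the first set, 175 of 189 members also had another WT peak within 500 bp. For 181 of the 189, the nearest mutant peak overlapped another WT peak, so the member was a second WT summit beside a site that a mutant list also held. Another WT peak within 500 bp was found for 31.6% of all members (28.2 to 35.3) and for 9.95% of the other WT gene-end peaks (9.37 to 10.6), but it was also found for 30.1% (25.1 to 35.5) of peaks shared with 3A alone and 29.8% (23.4 to 36.9) of peaks shared with 7A alone. The share of members with a mutant peak within 500 bp follows the overlap rule, and was 53.1% when sharing needed 50% of both peaks and 73.1% when it needed summits within 100 bp. The smallest gap between neighbouring peaks was 107 bp in the 3A list, 174 bp in the 7A list and 76 bp in the WT list.

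**Figure D3:**
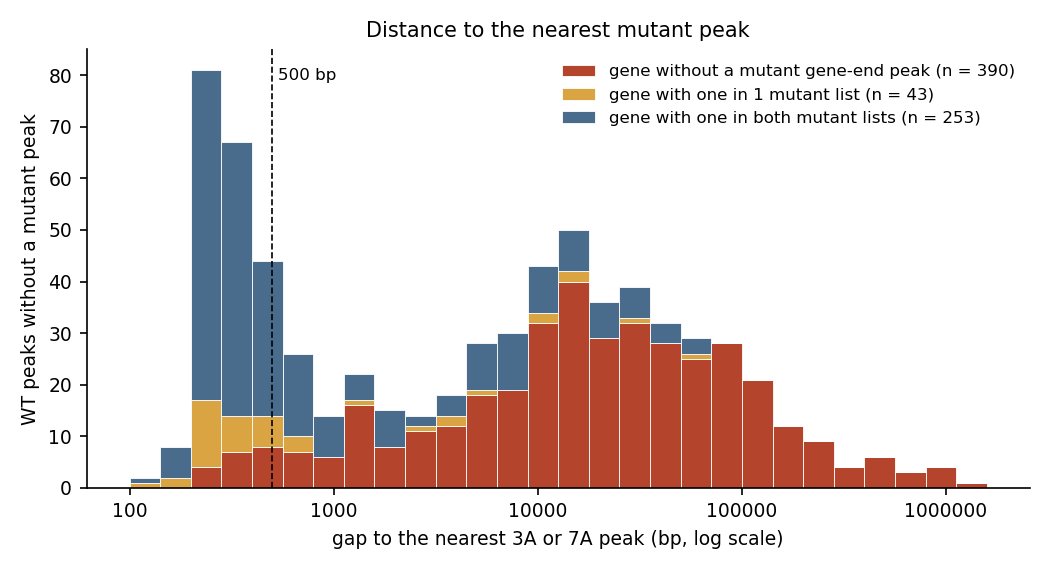
Number of members (y axis) by their gap to the nearest 3A or 7A peak (x axis, bp on a log scale), with the dashed line at 500 bp. Colours show whether a gene at the member had a gene-end peak in neither mutant list (390 members), in 1 of them (43) or in both (253). Of the 189 members within 500 bp, 143 belong to genes held by both mutant lists, and of the 366 members over 5000 bp away, 307 belong to genes held by neither.

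The close members were seldom at transcription ends. Of the 153 with known strand 7 were, or 4.58% (1.86 to 9.2), against 28.5% (23.3 to 34.1) of the 288 far ones. Median fold enrichments were 7.99 in the close set, 9.46 in the middle set and 7.26 in the far set. The members farthest from any mutant peak were at BRINP3, at 1130023 bp with a fold enrichment of 7.13, at LUM, which encodes the matrix proteoglycan lumican, at 923111 bp with 7.92, and at LOC124900192, at 880393 bp with 7.05.

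Many genes with a member also had MAX in the mutant lists. The members belonged to 737 genes, or 6.42% of the 11472 that had a WT peak summit in their windows. Of the 737, 272 had a gene-end peak in both mutant lists, 30 in 3A alone, 18 in 7A alone and 417 in neither. The 417 were 3.63% of the 11472, and became 190 with lists of equal length. Counted with or without a member, 457 genes, or 3.98%, had a WT but no mutant gene-end peak, and in 40 of them a mutant peak overlapped each WT peak with its summit outside the window. Of the 417, 33 likewise had some base of a mutant peak within 1000 bp of an end, and 384 had none. Genes with a member had a median length of 30558 bp and other genes with a WT gene-end peak 31323 bp.

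The number of group genes with a member depends on the settings. It was 95 over the 35 lists and name patterns, 60 with lists of equal length or a window of 500 bp, 152 with 2500 bp and 244 when sharing needed summits within 100 bp. Of 79 cytosolic ribosomal protein genes with a WT gene-end peak, 0 had a member, which allows a share of up to 4.56% (upper bound of the exact interval), against 6.42% over all genes. Peak strength and nearest end were not matched in this comparison. Of all WT gene-end peaks with a fold enrichment of 20 and over, 1.03% were members. In the other groups with a count of 0 the interval includes 6.42%: 0 of 31 respiratory complex I genes, 0 of 27 genes of cell cycle and replication, 0 of 17 genes of glycolysis and lactate transport and 0 of 16 actin cytoskeleton genes had one, with upper bounds between 11.2% and 20.6%. Mitochondrial ribosomal proteins had 1 of 69, MRPL35 (fold enrichment 9.50), and the proteasome 1 of 30, PSMA1 (11.0), with intervals up to 7.81% and 17.2%. In ribosome assembly and RNA polymerase I, 2 of 41 had a member, or 4.88% (0.596 to 16.5), namely NOP14 (12.7) and NOP56 (6.46), and both lay past the transcription end. The start peak of NOP14 measured 72.3 in 3A, 91.0 in 7A and 90.7 in WT, and that of NOP56 42.9 in 3A, 39.4 in 7A and 121.6 in WT.

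Higher shares than 6.42% were found for several small groups, with wide intervals. Collagens, fibrous proteins of the extracellular matrix, had 6 of 20 genes with a member, or 30% (11.9 to 54.3), among them COL27A1 (11.7), the pair COL4A1 and COL4A2, and COL6A1 (9.93). Replication-dependent histone cluster genes had 6 of 28, or 21.4% (8.3 to 41), with H4C5 (9.70), H2AC15 (8.87), and a peak of 4.68 shared by H2AC4 and H3C2. Immediate early genes, induced rapidly and without new protein synthesis when cells receive growth factors, had 5 of 21, or 23.8% (8.22 to 47.2). In 4 of the 5, among them CCN1 (24.6), KLF6 (18.9) and NR4A3 (10.4), no mutant list held a gene-end peak, against 417 of all 737 genes with a member. The NR4A3 member lay 437 bp from a mutant peak. JUND, an AP-1 subunit gene, had a member of 16.6 at 507 bp before its end, and a start peak of 24.5 in 3A, 40.9 in 7A and 41.9 in WT. Olfactory receptor genes had 5 of 9, or 55.6% (21.2 to 86.3), led by OR51D1 (15.7), with a peak of 4.73 shared by OR7A5 and OR7C1. These intervals count genes singly, also where genes share a peak. Only 9 of 390 olfactory receptor genes had a WT gene-end peak at all. No test of these groups was made, and the groups share genes and peaks.

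**Figure D4:**
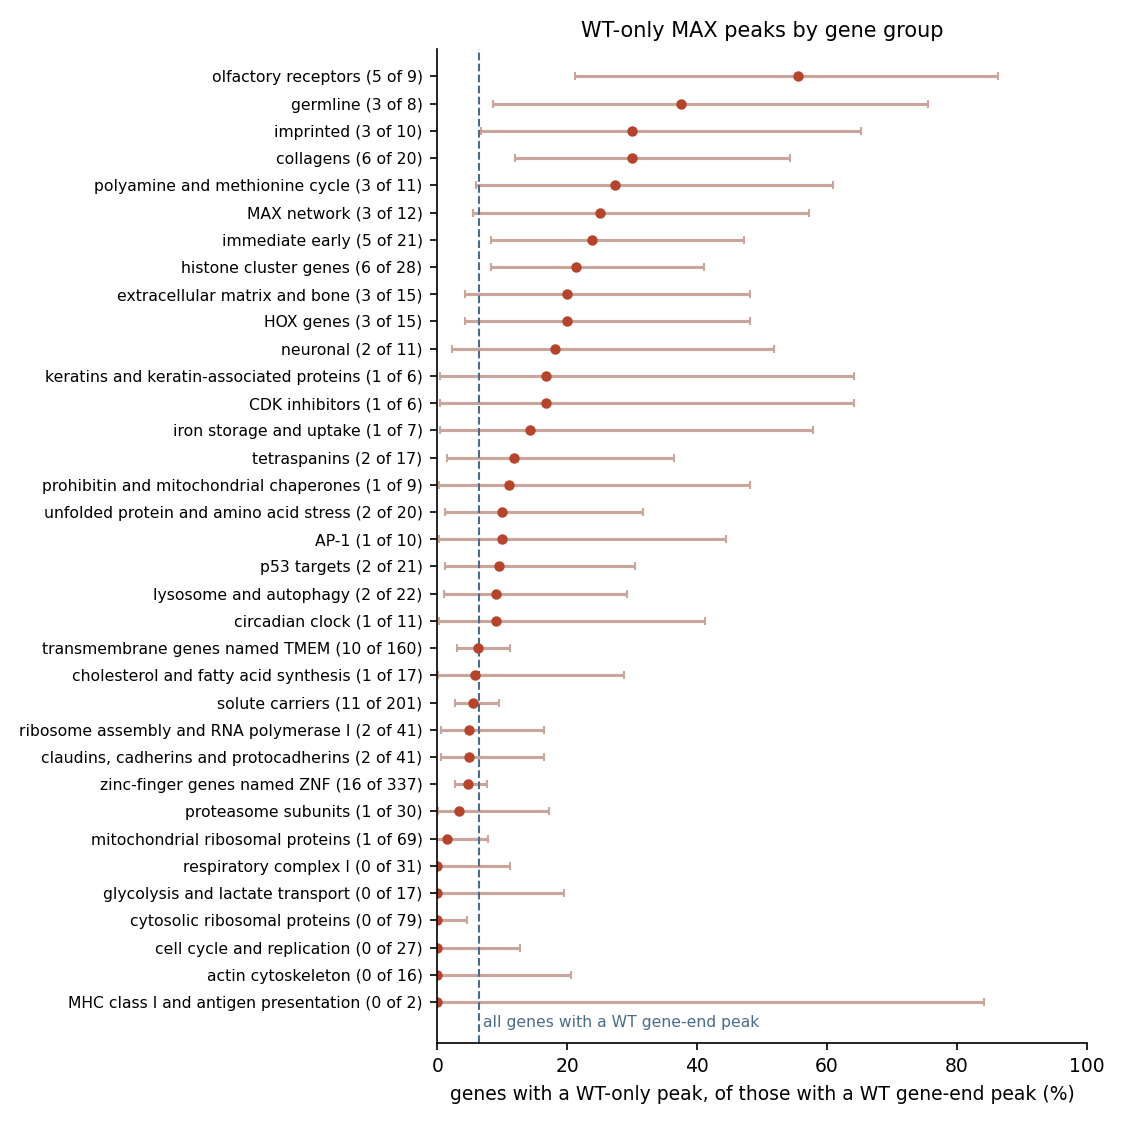
Share of genes with a member (x axis, percent) among genes of each group that had a WT gene-end peak, with both counts in brackets. Points are shares, bars 95% Clopper-Pearson intervals, and the dashed line marks the 6.42% found over all genes. Cytosolic ribosomal protein genes, at 0 of 79, have an interval that ends below the line. Peak strength was not matched between groups, and no test was made.

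Within the MAX network, 3 of 12 genes with a WT peak had a member, or 25% (5.49 to 57.2), an interval that includes the 6.42% of all genes. MXD3, which encodes a MAX-binding repressor, had a member of 12.3 at 536 bp past its end. MAX itself had a member of 5.16 at 633 bp past its start and 243 bp from a mutant peak. MLXIPL, the glucose-sensing ChREBP gene, had a member of 4.75 and no mutant gene-end peak. At MXD3 and MAX the start peaks were in all lists, at 52.4 in 3A, 47.0 in 7A and 74.3 in WT for MXD3, and at 17.0 in 3A, 22.3 in 7A and 29.4 in WT for MAX.

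In the polyamine and methionine cycle, 3 of 11 genes had a member, or 27.3% (6.02 to 61), an interval that includes the 6.42% of all genes. Each of the 3 acts on polyamine levels. OAZ1 and OAZ2 encode antizymes, which bind ornithine decarboxylase and target it for degradation, and AMD1 encodes S-adenosylmethionine decarboxylase. OAZ1 had a member of 13.6 at 346 bp past its end, OAZ2 a member of 7.28 at 163 bp before its start, and AMD1 a member of 4.46 beside a start peak of 19.9 in 7A and 13.4 in WT. Neither antizyme gene had a mutant summit in its windows. At OAZ1, however, a 3A and a 7A peak overlapped the WT start peak of 28.5, with summits farther into the gene. Among the genes of unfolded protein and amino acid stress, 2 of 20 had members, or 10% (1.23 to 31.7). They were DDIT4 and SLC7A11, the cystine transporter (6.66), and both had gene-end peaks in both mutant lists.

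Further lists held 1 or 2 genes with a member, namely 1 of 10 for AP-1, 1 of 9 for prohibitins and mitochondrial chaperones, 1 of 7 for iron storage and uptake, 1 of 17 for cholesterol and fatty acid synthesis, 2 of 21 for p53 targets, 1 of 6 for CDK inhibitors, 1 of 11 for the circadian clock and 2 of 22 for lysosome and autophagy. The exact interval of each of these lists includes the 6.42% of all genes. CDKN1A, the p53-induced CDK inhibitor p21, had a member of 4.31 at 45 bp before its start and no mutant gene-end peak, with a mutant peak 989 bp away. XPC, a DNA repair gene and p53 target, had a member of 7.87 at 478 bp past its end and start peaks in all lists. TFEB, the transcription factor of lysosome genes, had a member of 7.52 at 205 bp past its end and no mutant summit in its windows, although bases of a mutant peak reached them. GABARAPL1 (6.04) and SREBF1, the sterol-regulated transcription factor gene (4.43), had start peaks in all lists.

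The remaining lists had few genes with a WT peak, and are read against the 6.42% of all genes. The extracellular matrix and bone list had 3 of 15, with the collagens COL6A1 and COL5A1 (6.18) and the tenascin gene TNC (7.12), and keratins had 1 of 6, KRT78 (7.58). Imprinted genes had 3 of 10, or 30% (6.67 to 65.2), with PEG3 and ZIM2 sharing a peak of 29.4 and KCNQ1 at 4.82. Germline genes had 3 of 8, with ACTL8, SOHLH1 (8.80) and TDRD12 (6.74, 17 bp before its start). Neuronal genes had CAMKV and CAMK2B (6.76) of 11. HOX genes had 3 of 15, namely HOXC9 (8.52), HOXA7 (7.52) and HOXB6 (6.49). Claudins, cadherins and protocadherins had 2 of 41, or 4.88% (0.596 to 16.5), the protocadherin genes PCDHB12 (6.93) and PCDHB11 (4.49), at 3 bp and 12 bp from a gene end. The antigen presentation list had 0 of 2.

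Large families had shares near the 6.42% of all genes. Genes named ZNF, which encode zinc-finger proteins, had 16 of 337 with a member, or 4.75% (2.74 to 7.6). Of the 16, 13 had no mutant gene-end peak, against 417 of all 737 genes with a member. The strongest were ZNF547 (18.7), ZNF581 (17.3), ZNF841 (14.8) and ZNF282 (12.3). Solute carriers had 11 of 201, or 5.47% (2.76 to 9.58), with SLC9A7 (12.7) and the glutamate transporter gene SLC1A2 (10.9) besides those named above. Genes named TMEM had 10 of 160, or 6.25% (3.04 to 11.2), among them TMEM238 (12.5) and TMEM132D (12.4). Tetraspanins had 2 of 17, CD151 (31.3) and TSPAN33 (7.81).

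Promoter sequence gave a readout that the rule did not use. A RefSeq promoter window, 250 bases before to 50 after a listed start, held the summit of 124 members and of 4490 WT peaks shared with both mutants. CACGTG, searched on both strands and its own reverse complement, was in 13.7% of the member windows (8.19 to 21) and in 16.2% (15.1 to 17.3) of the shared windows. It was in 8.34% (7.98 to 8.71) of the 22132 windows of protein-coding genes. The related letters CACGCG were in 21% of the member windows (14.2 to 29.2), 26.3% of the shared windows (25 to 27.6) and 14.2% of protein-coding windows. Counted over any promoter of a gene with a member, CACGTG was in 8.16% (6.41 to 10.2).

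Further motifs were counted in the same windows, with no test of a difference. CACATG was in 13.7% of the member windows (8.19 to 21), 6.3% of the shared windows (5.61 to 7.05) and 8.93% of protein-coding windows. TGANTCA, the letters of AP-1 sites, was in 12.1% of the member windows (6.93 to 19.2), 3.76% of the shared windows (3.23 to 4.36) and 6.15% of protein-coding windows. GGGCGG, the letters of SP1 sites, was in 63.7% of the member windows (54.6 to 72.2) and 77.2% of the shared windows (75.9 to 78.4), and it was in 56.3% of protein-coding windows. CCAAT was in 18.5% of the member windows (12.1 to 26.5), 34.5% of the shared windows (33.2 to 36) and 34.6% of protein-coding windows. TATAAA was in 7.26% of the member windows (3.37 to 13.3), 3.83% of the shared windows (3.29 to 4.43) and 9.46% of protein-coding windows. The letters sought were not masked against each other, and a match is not a bound site. Motifs and base composition were not counted for peaks shared with 3A alone or 7A alone.

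Among peaks with a fold enrichment under 10, CACGTG was in 9.2% of 87 member windows (4.05 to 17.3) and in 3.51% of 997 shared windows (2.46 to 4.85). TGANTCA was in 14.9% of these member windows (8.2 to 24.2) and 4.61% of these shared windows (3.4 to 6.11). Where a window held CACGTG, the motif centre lay a median of 20.5 bp from the summit in members and 11.5 bp in shared peaks, and it lay within 50 bp in 13 of 17 member windows and 565 of 728 shared windows. Median GC contents were close, at 67.2% in the member windows and 67% in the shared windows, with lower quartiles of 57.2% and 61.3%. The ratio of observed to expected CpG had medians of 0.75 in the member windows and 0.88 in the shared windows. Its lower quartiles were 0.56 and 0.78, and its median over protein-coding windows was 0.74.

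Members were found on every chromosome examined. Their share of WT gene-end peaks ran from 3.12% (0.649 to 8.86) on chromosome 21 to 10.1% (7.22 to 13.7) on chromosome X, and chromosome 19 held the most, with 67 of 759 or 8.83% (6.91 to 11.1). Genes of non-coding RNA were counted where a peak overlapped them. No member overlapped a tRNA gene, which allows a share of up to 0.536% by the exact interval, and 25 of the 9583 gene-end peaks shared with both mutants did, or 0.261%, which lies inside that interval. One member covered RNU2-2, a U2 small nuclear RNA gene, beside WDR74 (fold enrichment 15.6), and another SNORD13 beside TTI2 (12.9). Long non-coding RNA genes were overlapped by 14.1% of members (11.6 to 17) and 22.2% of shared peaks (21.4 to 23). Peak width was not matched in this count, and its median was 410 bp for members and 1005 bp for shared peaks.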

How the data were processed

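The authors deposited 1 headerless narrowPeak list per MYC form. Per the submitters' processing notes the tools were MACS2, Picard, SAMtools, Bowtie2 and cutadapt, with the builds mm10, hg19 and hg38 and no roles or versions given. The use made of replicates, inputs, Dox libraries and mouse reads in the calls is not stated there. Positions match hg38 contig names and are printed counting from 1. The deposited score equals the −log10 q times 10 without its decimals for 99.8% of 3A, 99.6% of 7A and 99.6% of WT peaks. The deposited fold enrichment is a linear ratio, and it and the −log10 q are values the authors deposited, used here to describe and rank peaks within a list. Columns of other samples numbered 0.

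Overlap meant at least 1 shared bp. The summit was the start plus the summit offset as deposited. Gene ends came from RefSeq (GRCh38.p14), and strand and promoter sequence from the RefSeq promoter table. A peak was assigned to its nearest end, and to each gene with an end within 1000 bp. Shares carry 95% Clopper-Pearson intervals, and no p-value was computed. Members, gene lists (21 lists and 14 name patterns) and the 500 bp and 5000 bp gap limits were chosen with earlier results of these data known. Named are the 20 strongest members, the 3 weakest, widest, nearest to and farthest from a mutant peak, the 3 on each side of each limit, and up to 4 genes per group with the strongest members. The sequences shown, the fold bins and the genes named for overlapped small RNAs were chosen after values were seen. The overlap and motif steps were tested on simulated data. Alternatives were other overlap rules, a −log10 q of at least 10, lists of equal length, and windows of 500 and 2500 bp. Software was matplotlib 3.10.9, SciPy 1.17.1, NumPy 2.4.6, pandas 2.3.3 and Python 3.11.15.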

Additional observations from a re-analysis of the deposited data

How the results depend on the processing

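No paired analysis was possible because the lists carry no replicate, and leaving out a replicate could not be run for the same reason. The count of 686 members became 1059 of 10776 WT gene-end peaks (9.83%) when sharing needed an overlap of 50% of both peaks, 1851 (17.2%) when it needed a mutant summit within 100 bp, 330 of 9400 with lists of equal length, 418 of 8876 (4.71%) with a window of 500 bp, and 1150 of 12727 (9.04%) with 2500 bp. It stayed within 1.5 times with mutant peaks widened by 500 bp (497) and with a −log10 q of at least 10 in all lists (680) or in WT alone (676). Of the 686, 314 stayed members with lists of equal length. Genes with a member and no mutant gene-end peak numbered 190 with lists of equal length, and between 345 and 501 under the windows and the stricter q. The share at transcription ends, 21.5%, was 15.4% with 50% overlap, 9% with summits within 100 bp, 28.4% with widened mutant peaks and 25.5% with 2500 bp. It lay between 19.2% and 22.7% under the other alternatives. The share at transcription ends was followed across settings by a choice made after seeing the data. The CACGTG share was 8.16% over any promoter of a gene with a member. Shortened lists and narrower windows take in fewer peaks by definition, and the causes of these shifts were not tested. Depth cannot be read from the lists, so a peak missing from a mutant list was not detectable at that list's threshold and may still be occupied.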
